A study of Mus musculus with 6 samples.

Results

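The subunits of oxidative phosphorylation were followed in CD45-negative cells of YUMM1.7 melanomas, 3 residual tumours on BRAF inhibitor (on-BRAFi) and 3 tumours taken before treatment. Members were the genes whose symbols carry the family names of the nuclear-encoded subunits (Nduf, Sdh, Uqcr, Cox and Atp5), 81 of the 23940 genes measured. By complex, 36 belong to complex I, 4 to complex II, 8 to complex III, 17 to complex IV and 16 to complex V. Both groups of tumours grew in C57BL/6 mice from YUMM1.7, a mouse melanoma line with an activated Braf allele. Neither the drug's name, dose and duration nor the mouse behind each tumour is given in the labels. A p-value here therefore measures how these tumours spread, which may be partly technical. A sort against CD45 removes leukocytes and keeps tumour cells along with stroma such as fibroblasts and vessels, so every value is an average over that mixture. In such a mixture fewer cells of a type and less RNA per cell cannot be told apart.

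Oxidative phosphorylation is carried out in the inner mitochondrial membrane. Complex I takes electrons from NADH and complex II from succinate, complex III passes them to cytochrome c, and complex IV hands them to oxygen. Complexes I, III and IV pump protons, and complex V, the ATP synthase, lets them flow back and makes ATP. In BRAF-mutant melanoma, oxidative metabolism is known as a programme that melanocyte-lineage factors can raise when the MAPK pathway is inhibited. Subunits encoded in the mitochondrial genome were not among the genes measured under the symbols searched, so they could not be analysed here.

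Most nuclear-encoded subunits were less abundant in the on-BRAFi tumours. The tested members had a median of 40.7, 40.6 and 39.0 FPKM in the on-BRAFi tumours, against 101, 73.3 and 72.7 FPKM in the pre-treatment tumours. FPKM counts fragments per transcript length and library size, so levels of different genes are compared per length. Every on-BRAFi library lay below every pre-treatment library, and the on-BRAFi libraries were the more alike. Summed over members, the level was 4832, 5327 and 4641 FPKM on BRAFi, against 11704, 9377 and 9085 FPKM before treatment. Of the total FPKM without genes of short RNAs, the members made up 1.53%, 1.61% and 1.52% on BRAFi, against 2.12%, 2.03% and 2.10% before treatment.

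Genes with a mean of at least 1 FPKM were tested with limma on log2(FPKM + 0.1), and 75 members passed that filter. Of these, 40 fell on BRAFi at an adjusted p under 0.05 and 0 rose, while 35 did not pass. At an unadjusted p under 0.05 the limma fit had 57 members lower and 0 higher, against 17.6% lower and 16.6% higher over all genes tested. At the adjusted threshold 10.3% of all 12075 genes tested fell and 8.76% rose. The members' median log2 fold change, on BRAFi over pre-treatment, was -0.97, against -0.01 over all tested genes, and 73 of the 75 estimates were below 0. In 55 members all 3 on-BRAFi values lay below all 3 pre-treatment values, which 19.5% of all tested genes also showed. Mean FPKM was at least 2-fold lower on BRAFi in 31 of the 40 members that fell. The members' median log2 level within a library stood 2.48, 2.48 and 2.37 above the median of all tested genes on BRAFi, against 3.59, 3.36 and 3.37 above it before treatment.

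**Figure D1:**
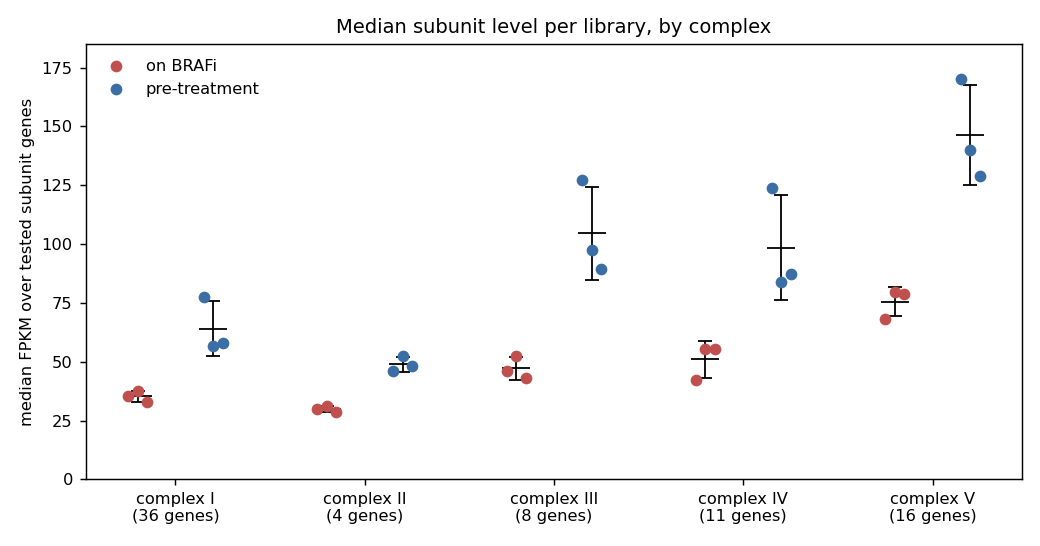
Median FPKM over the tested subunit genes of each complex, 1 point per library, with the mean and SD of the 3 libraries of a group. In each complex the 3 on-BRAFi libraries lie below the 3 pre-treatment libraries, with means of 75.6 FPKM on BRAFi and 146 FPKM before treatment in complex V, and of 29.9 FPKM on BRAFi and 48.8 FPKM before treatment in complex II. In complex II this gap rests on Sdhd, while Sdha, Sdhb and Sdhc overlap between groups. Its median log2 fold change is -0.32, and its sums are 147, 182 and 153 FPKM on BRAFi, against 205, 215 and 182 FPKM before treatment.

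The count depends on the scale and on single libraries. Set to 1 common total FPKM per library (the same-total scale), all genes had a median of 0.53 and the members of -0.43, and 6 members were lower, namely Cox7b, Uqcrq, Uqcrh, Ndufv2, Ndufa2 and Ndufa6. The same step without short RNAs moved them to 0.57 and -0.38, with 18 members lower and Ndufa1, Ndufb10 and Sdha higher. Both steps multiply all genes of a library by the same factor, so they shift members and other genes alike, and 4.29% and 5.63% of all genes were lower and 16.6% and 31.4% higher on them. Quantile normalization, which does not, gave medians of -0.69 for the members and 0.03 for all genes, with 25 members and 8.73% of all genes lower and 0 members and 9.33% of all genes higher. As deposited, total FPKM was 442915, 554684 and 414834 on BRAFi, against 921297, 613264 and 562041 before treatment, so the totals separated the groups in the same direction as the members. Pre-treatment tumour 1 held the highest value of 55 of the 75 tested members, and 26 members fell without it. Without on-BRAFi tumour 1, 2 or 3 the counts were 19, 29 and 21, and without pre-treatment tumour 2 or 3 they were 27 and 27.

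Fold changes over the whole transcriptome followed transcript length, and most subunits are short. The median length was 782 nt for the tested members and 2764 nt for all tested genes with a length. In the shortest of 10 length classes, up to 904 nt, the median log2 fold change was -0.61 and 22.6% of genes fell; this class held 42 members, of which 26 fell. In the longest class, from 6090 nt, the median was 0.17, 4.01% of genes fell, and there was no member. The members were also abundant, with a median mean level of 60.1 FPKM against 8.29 FPKM over all tested genes. Among the 760 genes both under 1000 nt and at a mean of 20 FPKM or more, 31.4% fell and 2.24% rose, and the median was -0.88. In that stratum 29 of 44 members fell, with a median of -1.06. Among the 28 members of 1000 nt or longer, 11 fell and the median was -0.68, against 8.77% and 0.02 for all genes of that length. As an alternative chosen after seeing the data, each library was centred within 20 length classes, a finer split than the 10 above. After this centring 13 members remained lower and Ndufa1 and Ndufb10 were higher, while 8.69% of all genes were lower and 8.13% higher. The medians were then -0.44 for the members and -0.01 for all genes. The part of length and of level in these fold changes was not tested further.

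**Figure D2:**
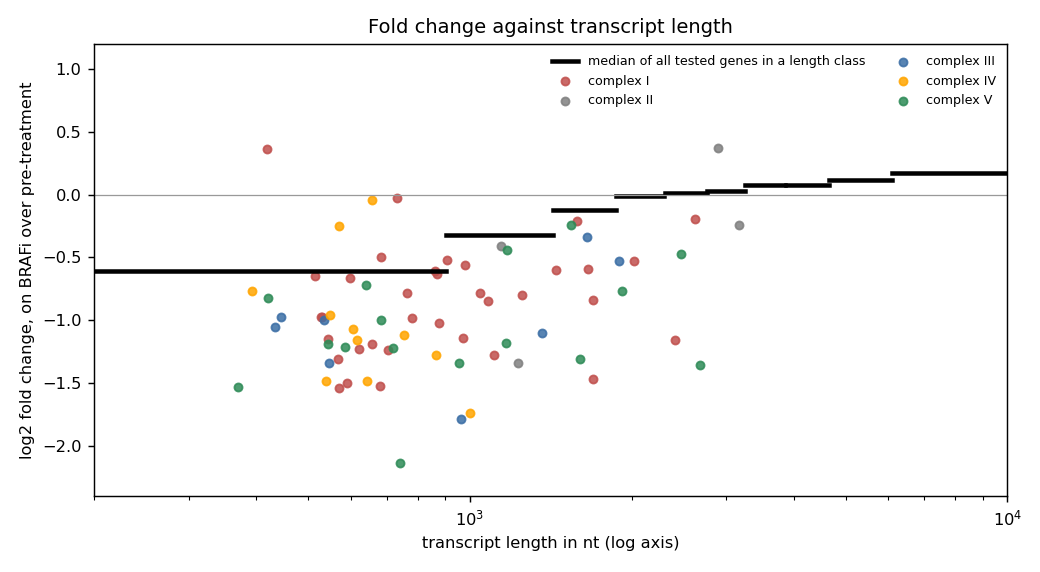
Log2 fold change of 74 of the 75 tested subunit genes against transcript length on a log axis, coloured by complex. Black lines show the median over all tested genes in each of 10 length classes, drawn over the part of the class inside the axis. The class medians run from -0.61 in the shortest class to 0.17 in the longest, and 36 of the 42 members of the shortest class lie below their class median.

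The start regions of the genes were compared for binding motifs of factors known to control nuclear-encoded mitochondrial genes. Windows from 250 bases before to 50 bases after the start (RefSeq, GRCm38.p6) were matched for 65 members. NRF1 is known to bind a palindrome, searched as GCGCA, any base, then GCGC. For ETS factors such as GABP the letters were CCGGAAGT, and for YY1 AAGATGGC. Each was searched on both strands. A match to NRF1 was in 26.2% of members, against 11.9% of 8727 windows of tested genes. YY1 matched 13.8% of members, against 5.56%, and ETS 7.69%, against 9.43%. Any of the 3 was in 46.9% of the 32 members that fell and in 46.7% of the 30 that did not pass, against 24.4% of tested genes. In the same order, NRF1 matched 31.2% and 23.3% of these members, YY1 15.6% and 13.3%, and ETS 3.12% and 13.3%. The 1 member that fell with an ETS match was Uqcrh. A stretch free of annotated exons is shown for 3 members, with motif letters in capitals. These are Cox7b, with the smallest p of all members, Uqcrh, which fell, and Cox6a1, which did not pass. They are examples and do not mirror the shares above.
Uqcrh (chr4:116075072-116075220, minus strand, ETS match in its last bases): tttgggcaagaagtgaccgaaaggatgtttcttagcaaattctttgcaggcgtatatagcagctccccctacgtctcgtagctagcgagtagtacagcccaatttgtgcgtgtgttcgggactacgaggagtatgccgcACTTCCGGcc
Cox6a1 (chr5:115348982-115349108, minus strand, NRF1 match): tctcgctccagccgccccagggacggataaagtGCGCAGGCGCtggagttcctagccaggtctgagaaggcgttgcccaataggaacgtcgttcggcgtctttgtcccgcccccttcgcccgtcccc
Cox7b (chrX:106015550-106015699, plus strand, no match in this stretch): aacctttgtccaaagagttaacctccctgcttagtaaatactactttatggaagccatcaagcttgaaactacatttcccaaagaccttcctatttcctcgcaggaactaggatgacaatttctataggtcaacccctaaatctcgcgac
The ETS letters of Uqcrh begin 11 bases before its start and stand in the reverse orientation. The NRF1 letters of Cox6a1 begin 117 bases before its start. A match describes the letters and was not tested as a binding site.

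Complex I, the NADH dehydrogenase, had 16 of 36 subunits lower and a median log2 fold change of -0.82. Its catalytic core holds the flavin and iron-sulphur clusters. Of the 7 nuclear-encoded core genes, 1 fell, against 10.3% of all tested genes, and their median was -0.59. That gene was Ndufv2, which carries an iron-sulphur cluster of the NADH-oxidising tip. Ndufv2 had 71.3, 82.0 and 71.2 FPKM on BRAFi, against 240, 176 and 210 FPKM before treatment. The groups did not overlap, and the log2 fold change was -1.47 ± 0.18 (SE; limma, adjusted p = 0.00305). Ndufs1, the largest core subunit, had 23.1, 31.3 and 27.3 FPKM on BRAFi, against 27.2, 31.3 and 34.3 FPKM before treatment. Its values overlapped between the groups, and it did not pass (limma, adjusted p = 0.513).

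Of the 29 accessory subunits, which surround and stabilise that core, 15 fell, and their median was -0.97. Most accessory transcripts are under 1000 nt, a length at which 22.7% of all tested genes fell, against 8.77% of longer genes. The part of length in the difference from the core was not tested. Ndufa6, a subunit of the LYR-motif family, had 45.0, 37.7 and 44.6 FPKM on BRAFi, against 138, 122 and 102 FPKM before treatment, a mean 2.84-fold lower. Ndufa2, a thioredoxin-fold subunit, had 33.6, 37.4 and 26.0 FPKM on BRAFi, against 131, 82.0 and 74.7 FPKM before treatment. Ndufa12 had 50.1, 40.5 and 41.9 FPKM on BRAFi, against 130, 104 and 90.5 FPKM before treatment. In all 3 genes the groups were well apart, and the log2 fold changes were -1.50, -1.54 and -1.28 (limma, adjusted p = 0.00295, 0.00967 and 0.00621). In the GENCODE annotation, exons of Ndufa2 overlap those of Tmco6 on the other strand. The libraries do not mark strand, so reads in the shared stretch cannot be assigned to 1 of the 2 genes.

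Ndufb4 and Ndufs4 were the most abundant subunits of complex I. Ndufb4 had 184, 227 and 99.3 FPKM on BRAFi, against 377, 358 and 329 FPKM before treatment. Ndufs4, a late-assembled subunit whose loss causes Leigh-like disease in mice, had 202, 167 and 161 FPKM on BRAFi, against 324, 275 and 346 FPKM before treatment. Ndufa4, now counted with cytochrome oxidase, was kept by its symbol in the complex I and accessory counts given here. Its values were 60.1, 90.6 and 64.6 FPKM on BRAFi, against 182, 126 and 115 FPKM before treatment. None of the 3 overlapped between groups, and their log2 fold changes were -1.14, -0.84 and -0.97 (limma, adjusted p = 0.0441, 0.0193 and 0.0364). These calls did not hold when most of the libraries were left out in turn. Over all genes the count lower also dropped then, from 1249 to between 629 and 887. Ndufs4 missed the threshold without on-BRAFi tumour 2 or 3 or pre-treatment tumour 1 or 3 (limma, adjusted p = 0.0613, 0.0618, 0.0531 and 0.0555). Ndufa4 and Ndufb4 missed it when any library other than on-BRAFi tumour 2 was left out (limma, adjusted p up to 0.128 and 0.13). After length class centring the log2 fold change of Ndufa4 was 0.06. By contrast Ndufv2, Ndufa2, Ndufa6 and Ndufa12 passed whichever library was left out.

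Some accessory subunits did not share the decrease. Ndufa1, a membrane-anchored subunit, had 47.1, 44.1 and 66.1 FPKM on BRAFi, against 48.2, 29.1 and 46.2 FPKM before treatment. Ndufb10 had 84.5, 98.1 and 71.1 FPKM on BRAFi, against 104, 73.3 and 81.3 FPKM before treatment. The values overlapped in both, and the log2 fold changes were 0.36 (95% interval -0.27 to 0.98) for Ndufa1 and -0.03 (95% interval -0.51 to 0.46) for Ndufb10. These 2 genes, like Ndufs1, were picked after their values were seen. The other complex I subunits had log2 fold changes between -1.52 and -0.21, all below 0.

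**Figure D3:**
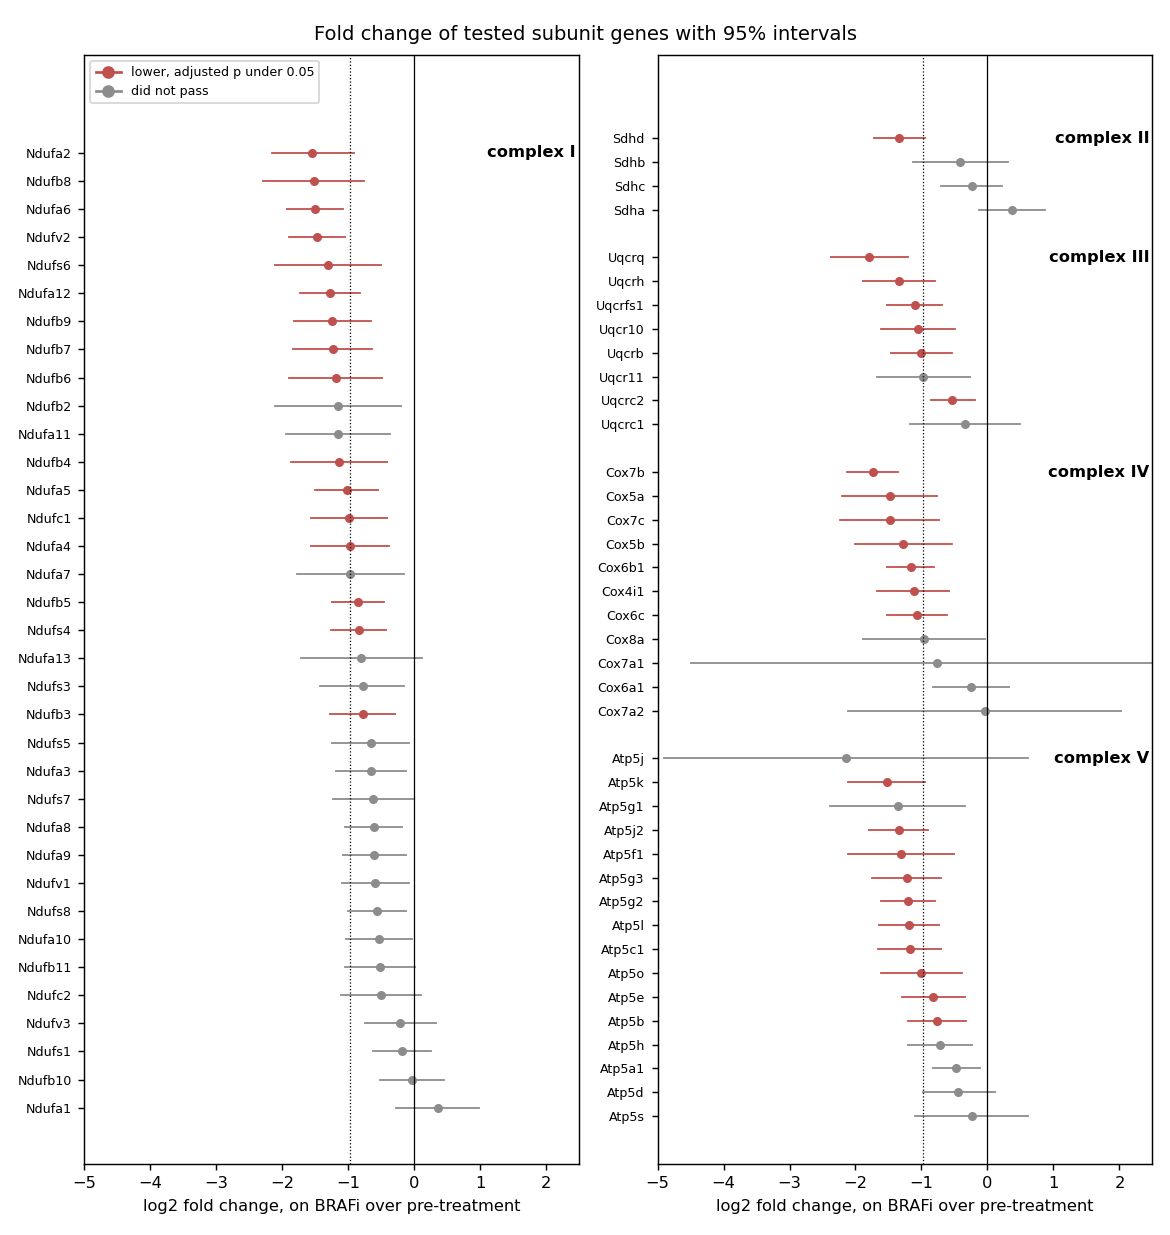
Log2 fold change, on BRAFi over pre-treatment, of 74 of the 75 tested subunit genes with 95% intervals, complex by complex. Red marks the 40 genes that fell at an adjusted p under 0.05 and grey 34 that did not pass; the dotted line is the members' median of -0.97, and the interval of Cox7a1 runs past the axis.

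Complex II, succinate dehydrogenase, also belongs to the citric acid cycle, and 1 of its 4 subunits fell while 3 did not pass. Sdhd, one of the membrane anchors, had 26.0, 28.8 and 28.3 FPKM on BRAFi, against 80.3, 65.3 and 65.3 FPKM before treatment. These values were far apart, and the log2 fold change was -1.34 ± 0.16 (SE; limma, adjusted p = 0.00308). The other anchor, Sdhc, had 34.3, 32.6 and 28.7 FPKM on BRAFi, against 32.5, 35.0 and 46.5 FPKM before treatment. The iron-sulphur subunit Sdhb had 18.0, 29.9 and 22.7 FPKM on BRAFi, against 34.6, 39.7 and 20.9 FPKM before treatment. Both overlapped between groups, with log2 fold changes of -0.24 for Sdhc and -0.41 for Sdhb (limma, adjusted p = 0.423 and 0.385). Sdha, the flavoprotein that oxidises succinate, had 68.9, 91.2 and 73.4 FPKM on BRAFi, against 57.5, 74.8 and 49.5 FPKM before treatment. Its groups overlapped as well, and the log2 fold change of 0.37 (95% interval -0.13 to 0.87) did not pass (limma, adjusted p = 0.263). The complex II median of -0.32 turned to 0.22 on the same-total scale and to 0.27 without short RNAs.

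Complex III, the cytochrome bc1 complex, had 6 of 8 subunits lower and a median log2 fold change of -1.03. Uqcrq, a small subunit next to cytochrome b, had 39.4, 36.0 and 38.5 FPKM on BRAFi, against 189, 107 and 112 FPKM before treatment. The on-BRAFi values were close together and far below the others, and the mean was 3.58-fold lower (log2 fold change -1.79 ± 0.24 SE; limma, adjusted p = 0.00443). Uqcrfs1, the Rieske iron-sulphur protein that passes electrons to cytochrome c1, had 13.9, 15.5 and 14.0 FPKM on BRAFi, against 36.2, 27.6 and 30.2 FPKM before treatment. Uqcrh, the hinge protein that binds cytochrome c1, also with its start region printed, had 157, 204 and 152 FPKM on BRAFi, against 560, 403 and 348 FPKM before treatment. Uqcrb, the ubiquinone-binding protein, had 292, 213 and 219 FPKM on BRAFi, against 544, 439 and 459 FPKM before treatment. No group overlapped in these genes, with log2 fold changes of -1.10, -1.34 and -1.0 (limma, adjusted p = 0.00723, 0.0101 and 0.0145).

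Uqcrq and Uqcrfs1 passed whichever library was left out. Uqcrh missed the threshold without on-BRAFi tumour 1, and Uqcrb without on-BRAFi tumour 2 or 3 (limma, adjusted p = 0.0557, 0.0538 and 0.0573). Exons of Uqcrb overlap those of Gm10767 on the other strand, and its log2 fold change was 0.02 after length class centring. The core proteins were described after their values were seen. Uqcrc2 had 59.4, 56.3 and 60.1 FPKM on BRAFi, against 80.2, 84.7 and 88.5 FPKM before treatment, a log2 fold change of -0.53 (limma, adjusted p = 0.0431). That call was lost when any library other than pre-treatment tumour 1 was left out (limma, adjusted p up to 0.0782), and the change was 0.02 on the same-total scale. Uqcrc1 had 27.6, 37.1 and 23.5 FPKM on BRAFi, against 23.7, 59.2 and 34.8 FPKM before treatment, and its groups overlapped (limma, adjusted p = 0.529).

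Complex IV, cytochrome c oxidase, had 7 of 11 tested subunits lower, with a median log2 fold change of -1.12. Cox7b, a small subunit needed for assembly whose start region is printed, had 160, 169 and 184 FPKM on BRAFi, against 644, 553 and 527 FPKM before treatment. The groups were widely separated, and the mean was 3.36-fold lower (log2 fold change -1.74 ± 0.16 SE; limma, adjusted p = 0.0015). Cox6c, among the most abundant members, had 285, 386 and 367 FPKM on BRAFi, against 824, 674 and 676 FPKM before treatment. Cox6b1, which bridges the dimer on the intermembrane face, had 83.9, 86.0 and 84.9 FPKM on BRAFi, against 209, 192 and 172 FPKM before treatment. Neither gene overlapped between groups, with log2 fold changes of -1.07 and -1.16 (limma, adjusted p = 0.0115 and 0.00366).

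Cox4i1, the ubiquitous isoform of the subunit that binds ATP as a regulator, had 145, 164 and 105 FPKM on BRAFi, against 342, 243 and 309 FPKM before treatment. Cox5a had 19.2, 11.1 and 14.5 FPKM on BRAFi, against 53.6, 28.7 and 44.5 FPKM before treatment. Both were lower in every on-BRAFi tumour, with log2 fold changes of -1.12 and -1.48 (limma, adjusted p = 0.0176 and 0.0173). Cox7b and Cox6b1 passed whichever library was left out, and Cox6c missed without on-BRAFi tumour 1 (limma, adjusted p = 0.0529). Cox4i1 missed without on-BRAFi tumour 1 or pre-treatment tumour 1 or 3, and Cox5a without on-BRAFi tumour 2 or 3 or pre-treatment tumour 1 or 3 (limma, adjusted p up to 0.0649 and 0.0688).

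Cox6a1, the non-muscle isoform of its subunit, had 41.2, 55.3 and 42.2 FPKM on BRAFi, against 73.1, 52.0 and 42.6 FPKM before treatment. Cox8a had 29.3, 26.1 and 55.5 FPKM on BRAFi, against 105, 64.6 and 46.4 FPKM before treatment. Their groups overlapped, and neither passed (limma, adjusted p = 0.503 and 0.133). Cox7a2 had 31.2, 47.1 and 38.0 FPKM on BRAFi, against 8.23, 84.0 and 87.4 FPKM before treatment. Pre-treatment tumour 1 was thus the lowest of the 6, and it was the highest for most members. With it the log2 fold change of Cox7a2 was -0.04, and without it -1.16 (limma, adjusted p = 0.981 and 0.03).

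**Figure D4:**
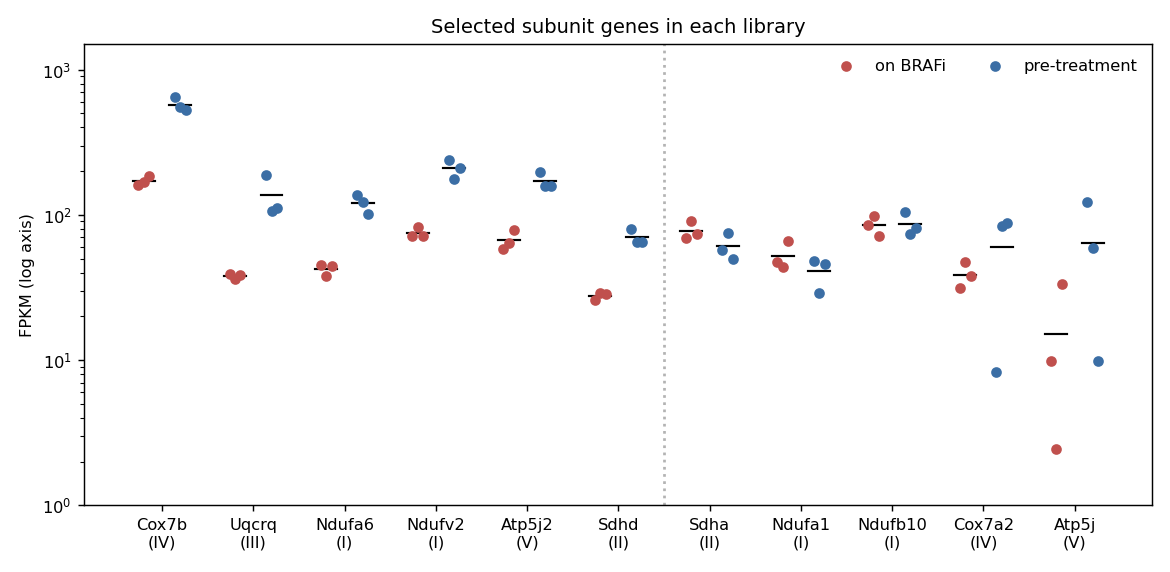
FPKM of 11 subunit genes in each library on a log axis, with the complex under the gene and black lines at group means. Left of the dotted line are 6 genes whose groups do not overlap, such as Cox7b (means of 171 FPKM on BRAFi and 575 FPKM before treatment); right of it are 5 genes whose groups overlap, among them Atp5j, which spans 2.46 to 123 FPKM.

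The tissue-restricted isoforms of cytochrome oxidase were near or at 0. Cox4i2, Cox6a2, Cox6b2, Cox7b2, Cox8b and Cox8c, known from lung, muscle or testis, were the 6 members below the filter. Their means over all libraries ran up to 0.577 FPKM, and Cox8b was listed at 0 in every library. Just above the filter stood the muscle isoform Cox7a1, with 5.43, 0 and 1.45 FPKM on BRAFi, against 6.57, 0.69 and 0.711 FPKM before treatment. The balance of 8 pairs of related genes was compared within libraries, as the difference of their log2(FPKM + 0.1) levels, which library scaling moves little. The exact two-sided permutation test over 3 and 3 libraries cannot go below p = 0.1. Ndufa4l2, the hypoxia-inducible relative of Ndufa4 that lies outside the symbol rule, reached that limit. It had 1.32, 0.418 and 0.574 FPKM on BRAFi, against 0, 0.0855 and 0 FPKM before treatment, with no overlap. Relative to Ndufa4 it was higher on BRAFi by 3.66 on the log2 scale (exact permutation p = 0.1, adjusted p = 0.8 over the 8 pairs), a size that depends on the pseudocount at such low levels. In each of the 5 cytochrome oxidase pairs 1 gene was listed at 0 in some or all libraries. The pseudocount sets its level there, and nothing is read from these pairs. With a pseudocount of 1, Cox4i2 against Cox4i1 and Cox6b2 against Cox6b1 also reached the limit (exact permutation p = 0.1).

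Complex V, the ATP synthase, had 10 of 16 subunits lower and a median log2 fold change of -1.19. Its catalytic head, which makes ATP, had 3 of 5 genes lower with a median of -0.77, against 10.3% lower over all tested genes. Atp5b, the catalytic beta subunit, had 138, 176 and 141 FPKM on BRAFi, against 238, 298 and 238 FPKM before treatment. Atp5a1, the alpha subunit, had 82.5, 94.4 and 80.8 FPKM on BRAFi, against 120, 123 and 114 FPKM before treatment. Both were lower in each on-BRAFi tumour, with log2 fold changes of -0.77 and -0.47, and only Atp5b of these passed (limma, adjusted p = 0.029 and 0.0683). Atp5b in turn missed the threshold when any library other than on-BRAFi tumour 2 was left out (limma, adjusted p up to 0.0979). On the same-total scale the log2 fold change of Atp5a1 was 0.07. The exons of Atp5a1 overlap Haus1 on the other strand. Both genes were picked after their values were seen.

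The 3 genes of the c-ring, Atp5g1, Atp5g2 and Atp5g3, encode the same mature protein behind different import sequences. Atp5g2 had 37.4, 28.0 and 35.5 FPKM on BRAFi, against 71.4, 81.4 and 78.7 FPKM before treatment. Atp5g3 had 51.1, 64.8 and 43.2 FPKM on BRAFi, against 143, 100 and 128 FPKM before treatment. Atp5g1 had 19.5, 8.58 and 30.7 FPKM on BRAFi, against 45.3, 43.9 and 44.7 FPKM before treatment. In all 3 the on-BRAFi values were the lower, and the log2 fold changes were -1.21, -1.22 and -1.36 (limma, adjusted p = 0.00536, 0.0115 and 0.0703). Atp5g1, whose on-BRAFi values spread most, passed without on-BRAFi tumour 3, and Atp5g3 missed without on-BRAFi tumour 1 (limma, adjusted p = 0.0449 and 0.0548). Set against Atp5g3 within a library, Atp5g1 differed between groups by -0.14 and Atp5g2 by 0.02 on the log2 scale (exact permutation p = 0.9 and 0.9).

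The 3 small membrane subunits Atp5k, Atp5l and Atp5j2 all fell, with a median of -1.34. Their transcripts are under 1000 nt, where 22.7% of all tested genes fell. Atp5k, the e subunit, had 203, 127 and 160 FPKM on BRAFi, against 586, 443 and 384 FPKM before treatment. Atp5l, the g subunit, had 204, 219 and 181 FPKM on BRAFi, against 558, 400 and 431 FPKM before treatment. Atp5j2, the f subunit, had 58.6, 64.2 and 79.2 FPKM on BRAFi, against 197, 157 and 158 FPKM before treatment. The groups lay far apart, and all 3 passed whichever library was left out (limma, log2 fold changes -1.53, -1.19 and -1.34, adjusted p = 0.00779, 0.00753 and 0.00456). Exons of Atp5l overlap Gm30934 on the other strand.

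Of the 4 genes of the peripheral stalk, which holds the head still against the rotor, 2 fell. Atp5h, the d subunit, was among the most abundant, with 276, 396 and 295 FPKM on BRAFi, against 598, 518 and 466 FPKM before treatment. It lay below in every on-BRAFi tumour at a log2 fold change of -0.72, and just missed the threshold (limma, adjusted p = 0.0514; 0.0429 without on-BRAFi tumour 2). Atp5j, the coupling factor, had 9.86, 2.46 and 33.2 FPKM on BRAFi, against 123, 59.3 and 9.91 FPKM before treatment. It had the lowest log2 fold change of all members, -2.14, but its groups overlapped and its SE was 1.16 (limma, adjusted p = 0.242). Its exons overlap Gabpa on the other strand, which had 3.18, 2.82 and 9.13 FPKM on BRAFi, against 14.7, 10.3 and 5.06 FPKM before treatment. In both genes on-BRAFi tumour 3 was the highest of its group and pre-treatment tumour 3 the lowest of its group. Of all 81 members, 21 share exon sequence with another annotated gene. Of the 55 tested members without such an overlap, 29 fell. Many of these genes also have processed pseudogenes, and the sources used here do not say how reads that match several places were counted.

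Genes around the complexes were counted from lists kept whole. Of 14 tested partners outside the symbol rule, 6 fell and 1 rose, against 10.3% lower and 8.76% higher over all tested genes. Atpif1, the inhibitor of ATP synthase, had 95.5, 124 and 78.5 FPKM on BRAFi, against 396, 255 and 295 FPKM before treatment, with no overlap (log2 fold change -1.67; limma, adjusted p = 0.00563). Usmg5, which stabilises ATP synthase dimers, Ndufab1, the mitochondrial acyl carrier protein, and Cox7a2l, a supercomplex factor, had log2 fold changes of -1.27, -1.29 and -1.27 (limma, adjusted p = 0.00901, 0.0199 and 0.0214). Usmg5 passed whichever library was left out. Atpif1 and Usmg5 are short, at 539 and 362 nt, and abundant. Of all genes under 1000 nt with a mean of 20 FPKM or more, 31.4% fell. Ndufab1 missed without on-BRAFi tumour 1 or 2 or pre-treatment tumour 1 or 2, and Cox7a2l without on-BRAFi tumour 1 or 3 or pre-treatment tumour 2 (limma, adjusted p up to 0.0751 and 0.08). The gene that rose, Sqrdl, a sulphide:quinone oxidoreductase, had 13.9, 16.7 and 15.5 FPKM on BRAFi, against 7.38, 9.31 and 5.31 FPKM before treatment (log2 fold change 1.09; limma, adjusted p = 0.0237).

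Assembly factors, which build the complexes without staying in them, were counted separately. Of 41 tested, 6 fell, a share not far from the 10.3% of all genes. Their median was -0.10, against -0.01 over all tested genes. Uqcc2, for complex III, had 94.9, 82.5 and 91.0 FPKM on BRAFi, against 360, 279 and 217 FPKM before treatment. Ndufaf2, for complex I, had 36.4, 32.6 and 39.2 FPKM on BRAFi, against 107, 104 and 86.5 FPKM before treatment. The groups did not overlap, and both passed whichever library was left out (limma, log2 fold changes -1.64 and -1.45, adjusted p = 0.00378 and 0.0026). Ndufaf5 and Higd1a had log2 fold changes of -1.16 and -1.91 (limma, adjusted p = 0.0118 and 0.0244). Ndufaf5 missed without on-BRAFi tumour 1, and Higd1a without any on-BRAFi tumour or without pre-treatment tumour 3 (limma, adjusted p up to 0.0563 and 0.0961).

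Of 17 genes of the citric acid cycle and pyruvate dehydrogenase, 2 fell, a share near the 10.3% of all genes, with a median of -0.37. Fumarase (Fh1) had 20.3, 13.9 and 17.5 FPKM on BRAFi, against 38.2, 36.0 and 32.5 FPKM before treatment (log2 fold change -1.06; limma, adjusted p = 0.0125). Malate dehydrogenase (Mdh2) had 31.9, 50.1 and 32.7 FPKM on BRAFi, against 69.1, 70.5 and 77.7 FPKM before treatment (log2 fold change -0.95; limma, adjusted p = 0.0245). Neither overlapped between groups; Mdh2 missed when any library other than on-BRAFi tumour 2 was left out (limma, adjusted p up to 0.0855). Carriers and general mitochondrial proteins had 8 of 14 lower and a median of -0.73. The largest change among them was in Slc25a5, an ADP/ATP carrier that exports ATP, with 31.2, 33.9 and 26.4 FPKM on BRAFi, against 157, 175 and 80.5 FPKM before treatment (log2 fold change -2.10; limma, adjusted p = 0.00565). Another ADP/ATP carrier of the list, Slc25a4, had 159, 134 and 143 FPKM on BRAFi, against 239, 193 and 215 FPKM before treatment. Its log2 fold change of -0.57 did not pass (limma, adjusted p = 0.0528). The import receptor Tomm20, the chaperonin Hspd1 and the prohibitin Phb2 had log2 fold changes of -1.40, -1.28 and -0.94 (limma, adjusted p = 0.00719, 0.014 and 0.0153). Hspd1 missed without pre-treatment tumour 1 or 3 (limma, adjusted p = 0.0551 and 0.0556).

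Regulators of mitochondrial biogenesis gave no call: 0 of 10 tested passed in limma in either direction, with 2 lower and 1 higher at an unadjusted p under 0.05, near the 17.6% and 16.6% of all genes, and a median of -0.20. The GABP subunit Gabpb1 had 6.69, 5.81 and 10.1 FPKM on BRAFi, against 16.7, 11.7 and 14.3 FPKM before treatment (limma, adjusted p = 0.0514; 0.0405 without on-BRAFi tumour 3). Its relative Gabpb2 had 20.1, 20.3 and 15.1 FPKM on BRAFi, against 9.11, 14.1 and 12 FPKM before treatment, a log2 fold change of 0.66 without overlap that did not pass (limma, adjusted p = 0.0923). Ppargc1a, the coactivator PGC1-alpha, was below the filter, with 0.692, 1.65 and 1.62 FPKM on BRAFi, against 0.558, 0.655 and 0.279 FPKM before treatment. Its values did not overlap between groups, and in the limma fit without a filter the log2 fold change of 1.22 did not pass (adjusted p = 0.201).

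Marker genes of some cell types differed between the groups, while the sums of leukocyte, skeletal muscle and erythroid markers overlapped. The 7 fibroblast markers summed to between 7821 and 8311 FPKM on BRAFi and between 838 and 1298 FPKM before treatment, and 5 rose. Of the other 2, Pdgfra had 147, 164 and 151 FPKM on BRAFi, against 99.7, 152 and 153 FPKM before treatment, and Pdgfrb had 48.8, 45.4 and 61.2 FPKM on BRAFi, against 33.7, 38.0 and 39.0 FPKM before treatment (limma, adjusted p = 0.494 and 0.108). The 6 endothelial markers, all of which rose, summed to between 60.1 and 104 FPKM on BRAFi and between 15.3 and 24.1 FPKM before treatment. Pericyte and smooth muscle markers summed to between 47.6 and 92.8 FPKM on BRAFi and between 21.2 and 33.8 FPKM before treatment, with 2 higher and 1 lower of 4 tested. Among 8 melanocyte-lineage markers, Dct, Tyrp1 and Mlana were listed at 0 in every library, and the sums were 26.0 to 29.3 FPKM on BRAFi and 9.14 to 13.6 FPKM before treatment. Mitf, which controls that lineage, was the 1 that rose of 3 tested. It had 21.6, 19.3 and 23.6 FPKM on BRAFi, most of those sums, against 4.43, 5.65 and 7.23 FPKM before treatment. The other 2 tested, Tyr and S100b, overlapped between groups and did not pass (limma, adjusted p = 0.44 and 0.974). Ptprc, which encodes CD45, had 0.118, 1.10 and 0.809 FPKM on BRAFi, against 0.609, 1.09 and 2.18 FPKM before treatment. The 9 leukocyte markers summed to 22.0 to 44.2 FPKM on BRAFi and 27.6 to 34.2 FPKM before treatment. The 7 adipocyte markers summed to 18.3 to 158 FPKM on BRAFi and 1.92 to 2.85 FPKM before treatment, nearly all of it Fabp4, which vessel cells also express. Ucp1 was listed at 0 in every library, and Adipoq, Plin1 and Lep in every pre-treatment library. Erythroid markers summed to 20.7 to 1213 FPKM on BRAFi and 20.5 to 52.6 FPKM before treatment. Skeletal muscle markers summed to 4.13 to 7.20 FPKM on BRAFi and 3.94 to 5.79 FPKM before treatment. The part of these cell types in the subunit levels was not tested.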

How the data were processed

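The authors deposited 1 table of FPKM per gene symbol for 6 libraries. Per the submitters' processing notes, mm9, TopHat2, TopHat, Cuffnorm and Cuffdiff were used, with versions, roles and annotation not given in the sources used here. Per the labels' protocols, poly(A) libraries were unstranded, and reads are described both as single-end and as paired-end. Depth is unknown, so no counting interval is given. Total FPKM was lower in each on-BRAFi library than in each pre-treatment library, and short RNAs took 23.0% to 40.4% of it.

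Groups came from the sample labels, 3 tumours each. Values were taken as log2(FPKM + 0.1), which understates changes of low genes, and genes whose mean over the libraries reached 1 FPKM were fitted with limma 3.58.1 in R 4.3.3 (trend, two-sided, Benjamini-Hochberg over all 12075 tested genes, threshold 0.05). The fit was tested on simulated data. Isoform pairs were tested by exact permutation. Transcript lengths are medians of principal transcripts in the GENCODE annotation of mouse, and promoters came from RefSeq GRCm38.p6, a build other than that of the reads. Named members are, per complex, the 4 with the smallest p and the 2 most abundant, and both genes of each pair; each other list has up to 4 by p. Ndufa1, Ndufb10, Ndufs1, Atp5j, Atp5a1, Atp5b, Uqcrc1 and Uqcrc2 and further genes with values were added after their values were seen. Values of 1 member that was counted are not reported here. The members and lists were chosen with earlier results of these data known, and the lists by role within complexes I and V after values were seen. Alternatives were other pseudocounts, filters, scalings and fits, the tumour number as a replicate block, each library left out and, chosen after seeing the data, centring by length class.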

Additional observations from a re-analysis of the deposited data

How the results depend on the processing

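Counts lower as deposited, over all genes and members, were 1249 and 40, and counts higher 1058 and 0. On the same-total scale they were 518 and 6 lower, with 2009 of all genes higher; without short RNAs 680 and 18 lower, 3791 and 3 higher; with the replicate block 737 and 24 lower, 500 of all genes higher. With quantile normalization they were 1054 and 25 lower and 1127 and 0 higher, and after length class centring 1039 and 13 lower and 972 and 2 higher. By complex, in the order I to V, lower counts were 3, 0, 2, 1 and 0 on the same-total scale, and 7 (I), 3 (III), 3 (IV) and 4 (V) without short RNAs. They were 9 (I) and 6 (V) with quantile normalization, 10 (I) and 6 (V) with no trend, 9 (I), 4 (IV) and 6 (V) with the replicate block, and 5 (I), 3 (III), 1 (IV) and 3 (V) after length class centring. Medians for all members and complexes I to V were -0.43, -0.28, 0.22, -0.48, -0.58 and -0.64 on the same-total scale, and -0.38, -0.22, 0.27, -0.43, -0.53 and -0.59 without short RNAs. After length class centring they were -0.44, -0.38, -0.14, -0.36, -0.44 and -0.53, and with quantile normalization -0.69 (all), -0.19 (II), -0.72 (III), -0.75 (IV) and -0.74 (V).

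Leaving out each library gave 629 to 887 lower and 483 to 767 higher of all genes, and 19 to 29 members lower and 0 higher. By complex the lower counts ran from 6 to 12 (I), 1 to 1 (II), 3 to 5 (III), 4 to 5 (IV) and 4 to 8 (V). Medians ran from -1.09 to -0.81 (all), -0.91 to -0.69 (I), -0.43 to -0.26 (II), -1.14 to -0.89 (III), -1.24 to -1.02 (IV) and -1.20 to -1.0 (V).

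On the same-total scale and without short RNAs the median of all genes moved from -0.01 to 0.53 and 0.57, since every gene of a library is multiplied alike, and genes with small decreases turned positive with it: Atp5a1 (0.07 and 0.12), Cox6a1 (0.30 and 0.35), Cox7a2 (0.50 and 0.55), Idh3b (0.02 and 0.07), Ndufb10 (0.52 and 0.57), Ndufs1 (0.36 and 0.41), Sdhb (0.14 and 0.19), Sdhc (0.30 and 0.36), Uqcrc1 (0.20 and 0.26) and Uqcrc2 (0.02 and 0.07). After length class centring so did Cox6a1 (0.43), Cox7a1 (0.26), Cox7a2 (0.64), Ndufa4 (0.06), Ndufb10 (0.66), Sdhb (0.03) and Uqcrb (0.02). Cox7a1 (0.61) and Ndufb10 (0.06) did with array weights, Cox7a2 (0.17) and Ndufb10 (0.33) with quantile normalization. Without 1 library Cox7a1 (range -2.04 to 0.85), Cox7a2 (-1.16 to 0.53), Ndufb10 (-0.14 to 0.12) and Uqcrc1 (-0.65 to 0.01) did. The cause of the turns other than those on the 2 rescaled totals was not tested.

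Cox7b, Ndufa2, Ndufa6, Ndufv2 and Uqcrq, 5 of the 40, passed under every alternative run, and 13 passed whichever library was left out. Tumours that share a number did not deviate together (correlations of -0.0296, 0.0116 and -0.0896). With 3 libraries per group this cannot settle whether the numbers pair the tumours, and the labels do not say. With the block 24 of the 40 remained lower. Sequencing depth, which the table does not give, limits what can be said of the isoforms near 0.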
